A study of Drosophila melanogaster with 6 samples.

Results

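The genes described here encode the contractile apparatus of muscle in *Drosophila* embryos and comprise 35 of the 17714 genes in the deposited tables. They were chosen by name as genes of the thick and thin filaments, the giant and linker proteins, the Z-disc, and calcium handling and energy supply. Expression did not enter the choice, although earlier results of these data were known when the list was drawn up. All 35 were found in the tables, and all 35 passed the filter of 10 counts on average over the samples.

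A sarcomere is the repeating unit of a muscle fibre, in which thick filaments of myosin pull on thin filaments of actin that are anchored at the Z-disc. Calcium released from the sarcoplasmic reticulum binds troponin C, and the troponin and tropomyosin strand on the thin filament then shifts to let myosin bind. In the *Drosophila* embryo the body wall muscles come from the mesoderm, and genes of the contractile apparatus are switched on late, once myoblasts fuse. Several of these genes, among them *Tm1* and *Zasp52*, also make transcripts outside muscle.

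RNA was measured in 3 WT samples and 3 *Raf926* samples of whole, mixed-stage embryos. WT embryos were wild type (Oregon R per the methods), and *Raf926* embryos were labelled *Raf926*-/- and, per the study's methods, were maternally mutant, laid by females whose germline had been made homozygous for the *Raf926* allele on an FRT19A chromosome by FLP recombination against *ovoD2*. *Raf926* is a single allele of the kinase gene *Raf*, and the study describes the fathers as hemizygous males and *Raf* expression in the zygote as heterozygous, so the embryos were mutant for the maternal product and could carry a paternal wild-type copy, although the labels read -/-. Which of the listed crosses gave the RNA is not stated. The methods and the sample records disagree on the age and temperature of the collections (0 to 12 h at 18 °C, or 24 h of laying at 25 °C), and what any sample held by age cannot be told from the labels.

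The samples held 33275401 to 38120428 expected counts each. *Raf* itself had 2184 to 2935 normalized counts in WT and 1202 to 1546 in *Raf926*, with a log2 fold change of −0.88 (SE 0.15), although the transcript level does not itself test whether the allele was present. Normalized counts are expected counts per library after TMM scaling, brought to the average size of the libraries. The groups were compared with edgeR (quasi-likelihood F test), p was adjusted by Benjamini-Hochberg over the 11568 genes that passed the filter, and every adjusted p given for a count below is of this kind. A gene was called at an adjusted p under 0.1 with a fold change over 1.5. By that rule 3116 genes were lower and 2631 higher in *Raf926*, a split that became 3833 and 1967 with scaling by library size alone. In whole embryos, fewer muscle cells and less RNA per muscle cell cannot be told apart.

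In *Raf926* embryos, 29 of the 35 genes were lower, 1 was higher (*Zasp67*) and 5 were not called (*Tm1*, *tmod*, *Chd64*, *Msp300* and *Zasp52*). Over all genes tested, 26.9% were called lower, 22.7% higher and 49.7% either way. The median log2 fold change of the 35 genes was −3.99, against −0.04 over all genes tested. In all 29 genes called lower, every *Raf926* sample was below every WT sample, which held for 35.2% of all genes tested (68.5% did not overlap in either direction). The genes called lower fell into 21 in which *Raf926* replicate 2 stood well above the other *Raf926* replicates and 8 in which it did not.

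Levels of different genes can be compared only per length, which TPM provides. In WT the highest level was that of *Act57B*, an actin of larval muscle, at 1440 ± 453 TPM (SD, n = 3), rank 109 among all listed genes. *Mlp60A*, a small muscle LIM protein, followed at 874 ± 317 TPM, *Tm1* at 587 ± 109 TPM and *up*, troponin T, at 480 ± 169 TPM. The giant proteins were low on this scale, with *bt* at 23.6 ± 10.7 TPM, *sls* at 11.8 ± 3.43 TPM and *Unc-89* at 5.55 ± 2.24 TPM. *TpnC41C* at 1.55 ± 0.516 TPM and *Zasp67* at 0.0967 ± 0.0153 TPM were the lowest. Neighbours in this order overlapped between their WT samples at every step but 3, those between *tmod* and *Zasp52*, *Unc-89* and *TpnC41C*, and *TpnC41C* and *Zasp67*. Summed over the 35 genes, the level was 6713, 5049 and 9431 TPM in WT replicates 1, 2 and 3 and 717, 1295 and 682 TPM in the *Raf926* replicates. *Tm1* made up 345, 409 and 350 TPM of the sums in *Raf926*.

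**Figure D1:**
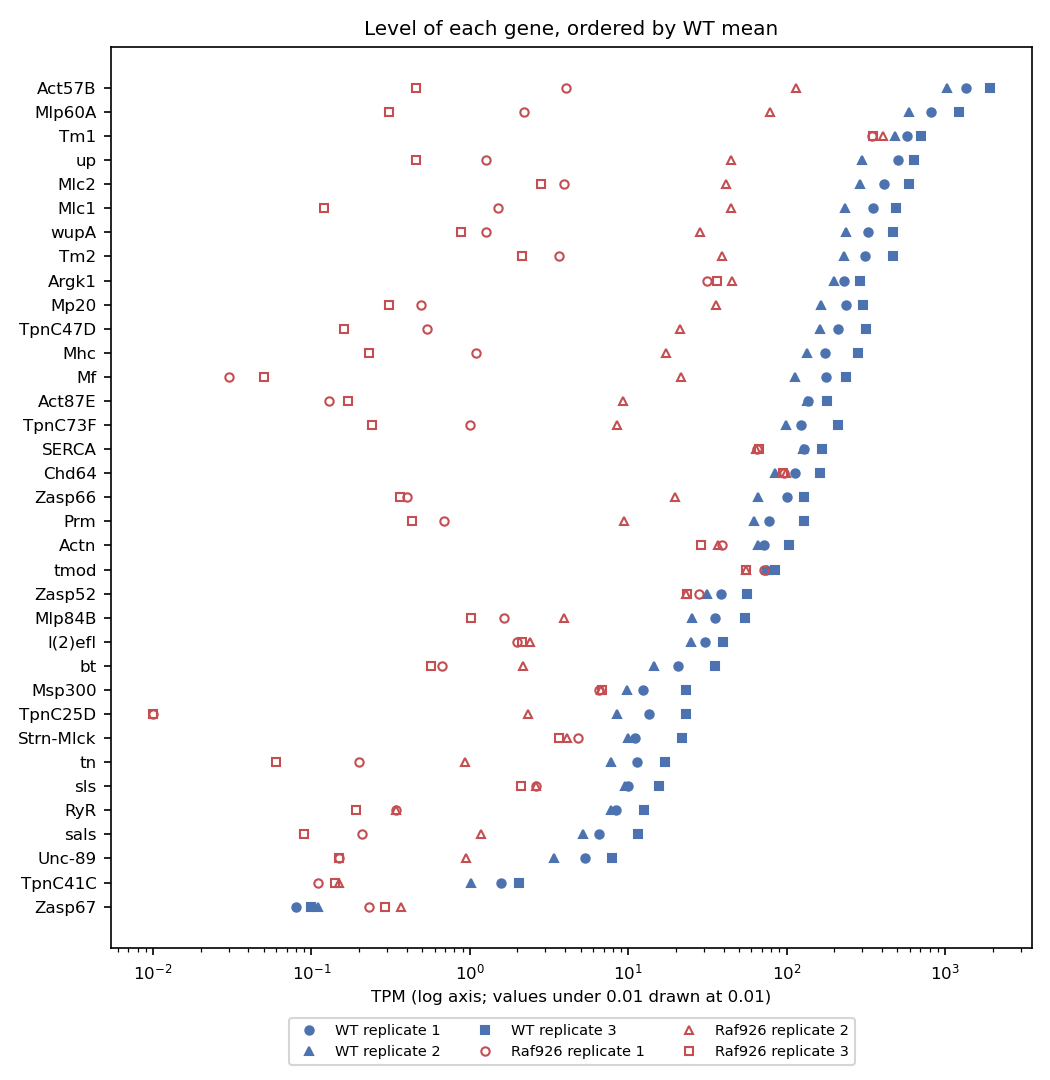
TPM of each gene (horizontal log axis, values under 0.01 drawn at 0.01) in the 3 WT samples (filled) and the 3 *Raf926* samples (open), with genes ordered by WT mean. *Act57B* leads in WT at 1440 TPM on average. In *Raf926* the ordering changes, with *Tm1* highest at 345 to 409 TPM. *Act57B* comes next after *Tm1* in *Raf926* replicate 2, and *Chd64* does in replicates 1 and 3.

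The WT samples themselves differed in a shared direction. WT replicate 3 was the highest WT sample in 34 of the 35 genes by normalized counts, against 38.3% of all genes tested, and WT replicate 2 was the lowest in 31. The exception to the first was *Zasp67*. *osk*, a maternal transcript, had 1216, 1549 and 220 normalized counts in WT replicates 1, 2 and 3, so that replicate 3 was the lowest there. Whether the age of the embryos had a part in this was not tested.

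All 5 thick filament genes were called lower, with a median log2 fold change of −4.36 (−7.92 without *Raf926* replicate 2). *Mhc* is the single muscle myosin heavy chain gene of the fly and lies on chromosome 2L, 16766566 to 16788766 (BDGP6.54). It had 35587, 28475 and 54146 normalized counts in WT and 264, 4142 and 57.8 in *Raf926* replicates 1, 2 and 3. All *Raf926* samples were below all WT samples, with replicate 2 the nearest to them. The log2 fold change was −4.73 (SE 1.35, edgeR adjusted p = 0.018), and −7.92 without *Raf926* replicate 2.

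Both light chains of muscle myosin were called lower. *Mlc2*, the regulatory light chain, had 26906, 19328 and 35777 normalized counts in WT and 300.2, 3138 and 221 in *Raf926* (log2 fold change −4.48, SE 1.02). *Mlc1*, the essential light chain, had 7783, 5190 and 9929 in WT and 43.0, 1127 and 3.15 in *Raf926* (−4.28, SE 1.37). In both, replicate 2 was again the highest *Raf926* sample and still under the lowest WT sample. By TPM, *Mlc1* stood at 1.74 to 2.03 times *Mhc* in WT and at 1.39, 2.58 and 0.522 times in *Raf926*, the last from 3 reads of *Mlc1*. *Mlc2* stood at 2.09 to 2.39 times *Mhc* in WT and at 3.59, 2.40 and 12.2 times in *Raf926*.

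The core proteins of the thick filament were lower as well. *Prm*, which encodes paramyosin and miniparamyosin, had 7632, 6278 and 11696 normalized counts in WT and 81.4, 1110 and 50.5 in *Raf926* (log2 fold change −4.36, SE 1.08). *Mf*, myofilin, had 5756, 3610.0 and 6621 in WT and 1.16, 859 and 1.05 in *Raf926* (−4.21, SE 1.5, adjusted p = 0.042). *Mf* was thus at 1 read in each of 2 *Raf926* libraries and at 16.1% of the WT mean in the other. Its call was lost without WT replicate 1 (adjusted p = 0.103). *Mf* lies on the strand opposite *Gyc88E*, which had 149 expected counts on average in WT and 50.7 in *Raf926*, and the counting is not stated to use strand. Their overlap is one of whole gene spans, introns included, and overlap of exons was not measured.

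**Figure D2:**
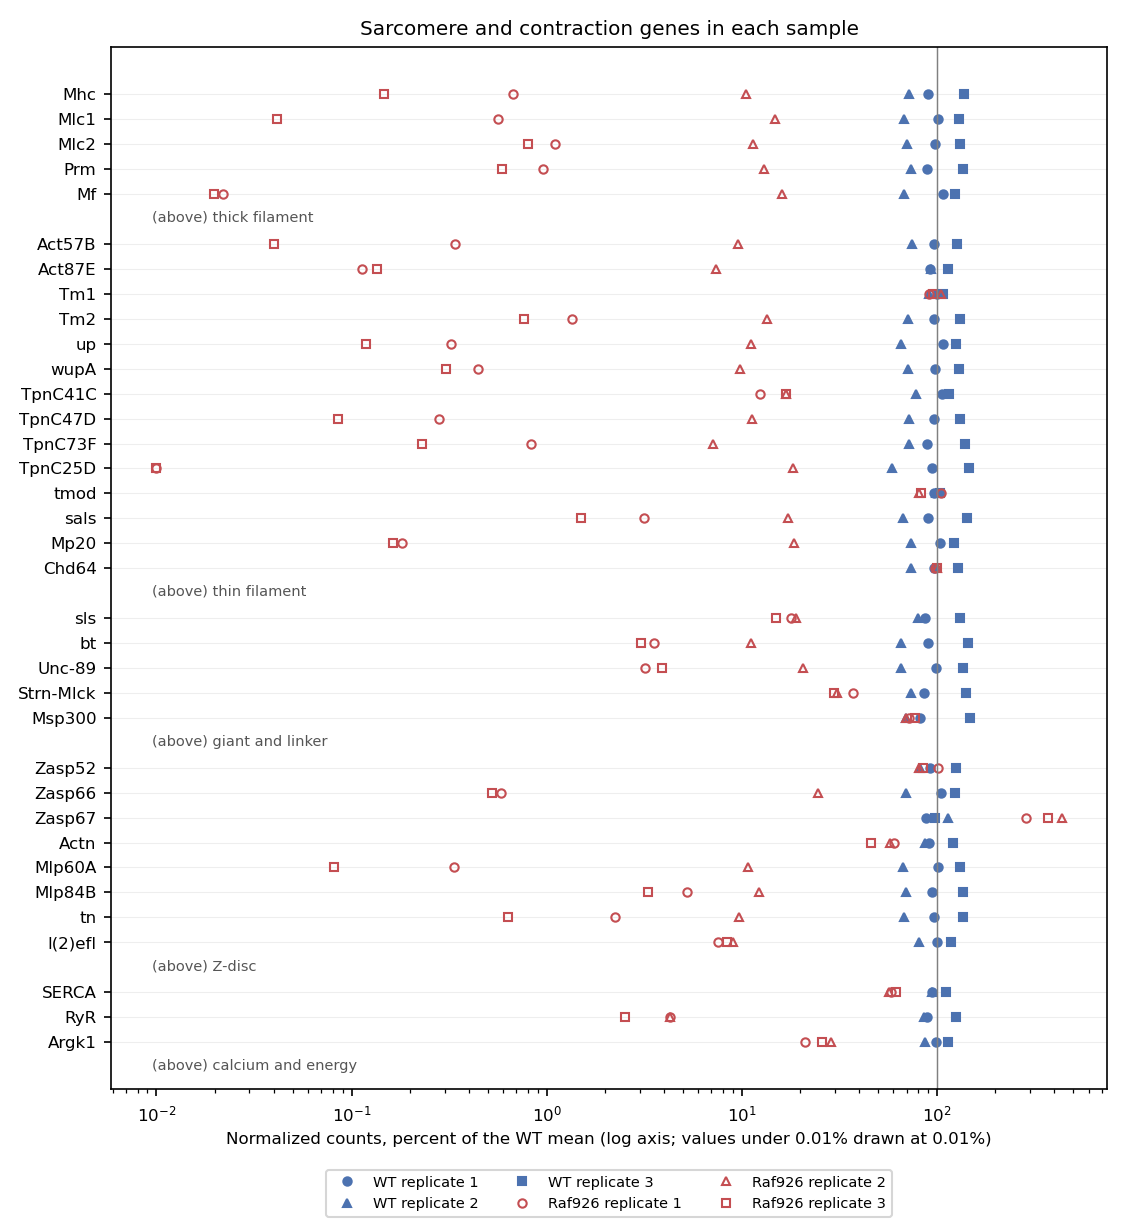
Normalized counts of each gene as a percent of its WT mean (horizontal log axis, values under 0.01% drawn at 0.01%), for the 3 WT samples (filled) and the 3 *Raf926* samples (open), grouped by role. Most thick and thin filament genes show *Raf926* replicates 1 and 3 near or under 1% of WT and replicate 2 near 10%, while *sls*, *SERCA*, *RyR* and *Argk1* show the 3 *Raf926* samples close together.

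Of the 14 thin filament genes, 11 were called lower and 3 were not called, with a median log2 fold change of −4.13 (−7.79 without *Raf926* replicate 2). *Act57B* had 64002, 49377 and 83889 normalized counts in WT and 223, 6314 and 26.3 in *Raf926* (log2 fold change −4.91, SE 1.59, adjusted p = 0.03). *Act87E*, a second actin of larval muscle, had 5744, 5782 and 7057 in WT and 6.98, 459 and 8.41 in *Raf926* (−5.28, SE 1.24, adjusted p = 0.0076). The groups did not overlap in either gene, and replicate 2 was the highest *Raf926* sample in both.

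The cytoplasmic actins gave a different picture. *Act5C* and *Act42A*, which serve the cytoskeleton of most cells, had log2 fold changes of 0.49 (SE 0.08) and 0.35 (SE 0.09), under the fold threshold. The muscle actins *Act57B* and *Act87E* made up 39.7%, 33.1% and 47.1% of the summed TPM of these 4 genes in WT replicates 1, 2 and 3. In *Raf926* they made up 0.157%, 4.47% and 0.0258%. Actin coding sequences are nearly identical, so the division of reads between these genes rests on RSEM's estimate.

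Troponin and tropomyosin make the calcium switch of the thin filament. *up*, troponin T, had 21106, 12826 and 24560 normalized counts in WT and 62.8, 2170 and 23.1 in *Raf926* (log2 fold change −4.69, SE 1.43). *wupA*, troponin I, had 9509, 6929 and 12644 in WT and 43.0, 949 and 29.4 in *Raf926* (−4.83, SE 1.19). Both genes held the order already seen in the myosin genes, with *Raf926* replicate 2 highest and replicate 3 lowest.

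All 4 troponin C genes were called lower. *TpnC47D* had 2386, 1790 and 3246 normalized counts in WT and 6.98, 279 and 2.10 in *Raf926* (log2 fold change −4.67, SE 1.21). *TpnC73F* had 2842, 2297 and 4464 in WT and 26.8, 228 and 7.36 in *Raf926* (−5.19, SE 0.96). These were the main troponin C genes of the WT embryos, at 57.5% to 60.5% and 35.2% to 38% of the summed troponin C TPM. *TpnC25D* had 172, 107 and 268 normalized counts in WT, 33.6 in *Raf926* replicate 2 and no count in the other *Raf926* replicates (−3.99, SE 1.19). Against the floor of 3 counts per library, those empty libraries put *TpnC25D* at least 52.2-fold lower than the WT mean, taking the floor of the shallower of them. Its call was lost with the DESeq2 Wald test, and 54 bases of its gene span overlap that of the more abundant *tkv* on the opposite strand. *TpnC41C* was low everywhere, at 39.7, 29.2 and 43.3 normalized counts in WT and 4.65, 6.29 and 6.31 in *Raf926* (−2.67, SE 0.39), and here replicate 2 did not stand apart.

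The tropomyosin genes parted from each other, although they lie side by side on chromosome 3R (*Tm1* at 15278220 to 15308779, *Tm2* at 15310193 to 15315197). *Tm2*, a muscle tropomyosin, had 10876, 8068 and 14943 normalized counts in WT and 152, 1521 and 86.2 in *Raf926* (log2 fold change −4.26, SE 1.01, adjusted p = 0.008). *Tm1*, which makes muscle and cytoplasmic isoforms, had 26450, 24081 and 28253 in WT and 23954, 27597 and 25031 in *Raf926* (−0.04, SE 0.10, adjusted p = 0.74). The *Tm1* ranges overlapped, with the lowest of the 6 samples in *Raf926* and the highest in WT. *Tm2* gave 32.2% to 40.3% of the summed tropomyosin TPM in WT and 1.05%, 8.79% and 0.606% in *Raf926* replicates 1, 2 and 3.

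Proteins that cap, lengthen or stabilize thin filaments fell on both sides. *sals*, which lengthens thin filaments at their pointed ends, had 635, 471 and 998 normalized counts in WT and 22.1, 122 and 10.5 in *Raf926* (log2 fold change −3.76, SE 0.81). *Mp20*, a calponin-like muscle protein, had 4691, 3301 and 5495 in WT and 8.14, 830 and 7.36 in *Raf926* (−3.99, SE 1.36, adjusted p = 0.035). Both were called lower, without overlap between groups. By gene span, introns included, *CG17230* overlaps *sals* on the opposite strand over 14007 bases. *CG17230* had 864.5 expected counts on average in WT and 427.7 in *Raf926*, and overlap of exons with *sals* was not measured.

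*tmod* encodes tropomodulin, which caps the pointed ends of actin filaments in muscle and other cells. It had 5747, 5911 and 6211 normalized counts in WT and 6265, 4825 and 4950 in *Raf926* (log2 fold change −0.16, SE 0.12, adjusted p = 0.29). *Chd64*, a calponin-like gene, had 4235, 3203 and 5620 in WT and 4264, 4344 and 4342 in *Raf926* (−0.01, SE 0.19, adjusted p = 0.96). The groups overlapped in both genes, and these were among the 5 genes not called.

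Of the 5 giant and linker genes, 4 were called lower, with a median log2 fold change of −2.53. *sls* encodes Sallimus and kettin, titin-like springs between Z-disc and thick filament, and lies on chromosome 3L, 2039681 to 2115611. It had 8936, 8225 and 13501 normalized counts in WT and 1828, 1952 and 1525 in *Raf926* (log2 fold change −2.53, SE 0.21, adjusted p = 8.2e-05). The *Raf926* samples were close together. *bt*, projectin, had 17196, 12574 and 27460 in WT and 678, 2123 and 580.2 in *Raf926* (−4.08, SE 0.57, adjusted p = 0.00071), with replicate 2 apart. *Unc-89*, the M-line protein obscurin, had 1734, 1147 and 2379 in WT and 55.8, 362 and 68.3 in *Raf926* (−3.43, SE 0.71), again with replicate 2 apart.

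The remaining giant genes changed less. *Strn-Mlck*, Stretchin-Mlck, had 1885, 1610 and 3079 normalized counts in WT and 813, 679 and 655 in *Raf926* (log2 fold change −1.62, SE 0.24, adjusted p = 0.0011), and no *Raf926* sample reached the WT range. *Msp300*, a nesprin of nuclei and Z-discs, had 8885, 7514 and 16013 in WT and 7777, 7504 and 8394 in *Raf926* (−0.45, SE 0.26, adjusted p = 0.16). The *Msp300* groups overlapped, with WT replicate 3 far above the other samples. *Msp300* was called lower with scaling by library size alone, with upper-quartile scaling and without WT replicate 2.

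Of the 8 Z-disc genes, 6 were called lower, 1 was called higher and 1 was not called. *Actn*, the actin crosslinker alpha-actinin, had 7325, 6961 and 9689 normalized counts in WT and 4832, 4593 and 3679 in *Raf926* (log2 fold change −0.87, SE 0.16, adjusted p = 0.0025). The groups did not overlap, although the fall was among the smallest of those called. By gene span, introns included, *Actn* overlaps *usp* on the same strand over 3514 bases and *east* on the opposite strand over 826 bases. On average *usp* had 1800.5 expected counts in WT and 1913.9 in *Raf926*, and *east* had 14231.6 and 12583.6. Overlap of exons with *Actn* was not measured. *Mlp60A* had 5226, 3482 and 6815 in WT and 17.5, 557 and 4.2 in *Raf926* (−4.74, SE 1.27), and *Mlp84B*, the other muscle LIM protein gene in the list, had 2405, 1764 and 3449 in WT and 134, 313 and 84.1 in *Raf926* (−3.84, SE 0.49). By gene span, introns included, *Mlp84B* lies within *Alh* on the same strand, and *Alh* was the more abundant in both groups. Overlap of their exons was not measured.

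*tn*, a TRIM-NHL protein of the Z-disc region, had 1609, 1128 and 2259 normalized counts in WT and 37.2, 162 and 10.5 in *Raf926* (log2 fold change −4.57, SE 0.81). *l(2)efl*, a small heat shock protein, had 478, 386 and 563 in WT and 36.1, 43.0 and 39.9 in *Raf926* (−3.58, SE 0.24, adjusted p = 4.4e-05). These were similar falls with different spreads, since *tn* showed a high replicate 2 and *l(2)efl* did not.

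The Zasp genes encode PDZ-domain proteins of the Z-disc, and the 3 members did not move together. *Zasp66* had 2955, 1958 and 3492 normalized counts in WT and 16.3, 686 and 14.7 in *Raf926* (log2 fold change −3.54, SE 1.22, adjusted p = 0.037). *Zasp52* had 3624, 3243 and 4938 in WT and 3987, 3192 and 3326 in *Raf926* (−0.17, SE 0.17, adjusted p = 0.42), with overlap between groups. *Zasp67* had 6.77, 8.76 and 7.5 in WT and 22.1, 33.6 and 28.4 in *Raf926* (1.85, SE 0.38, adjusted p = 0.0044). *Zasp67* was therefore the only gene of the 35 called higher, from a level of a few counts per library. Reads of opposite-strand genes could have entered all 3 values where exons overlap, and overlap of exons was not measured. The overlaps that follow are of whole gene spans, introns included. *tun* overlaps *Zasp52* over 23005 bases and had 1597 expected counts on average in WT and 4451 in *Raf926*, *Cdc6* overlaps *Zasp66* over 2561 bases and had 6126 and 5495, and *CG32052* spans all 9755 bases of *Zasp67* and had 41.0 and 14.7.

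All 3 genes of calcium handling and energy supply were called lower, and none showed a high *Raf926* replicate 2. *RyR*, the calcium release channel, lies on chromosome 2R, 8860364 to 8888097, and had 4153, 4010 and 5816 normalized counts in WT and 200.1, 200.3 and 118 in *Raf926* (log2 fold change −4.75, SE 0.26, adjusted p = 2.2e-05). *SERCA*, the pump that returns calcium to the reticulum, had 15941, 16010 and 18853 in WT and 9901, 9582 and 10462 in *Raf926* (−0.76, SE 0.10, adjusted p = 0.00056). *Argk1*, the arginine kinase that buffers ATP, had 10264, 8983 and 11868 in WT and 2202, 2977 and 2668 in *Raf926* (−1.99, SE 0.15, adjusted p = 6.2e-05). The release channel thus fell 27.0-fold and the pump 1.70-fold. *SERCA* and *Argk1* also make transcripts in tissues other than muscle, and transcripts of such tissues were not separated in these samples.

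**Figure D3:**
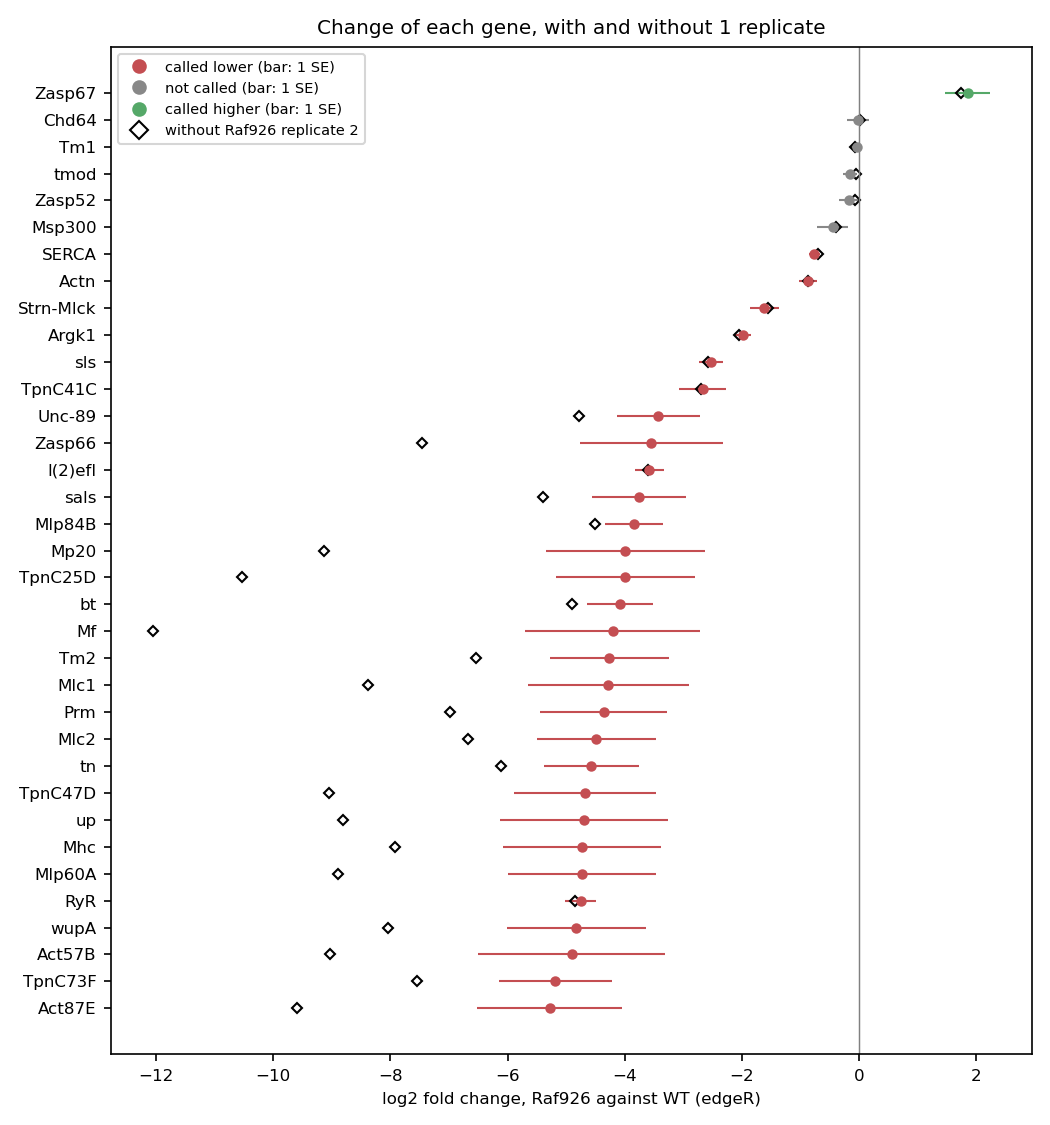
Log2 fold change of each gene, *Raf926* against WT, from edgeR (circles, bars of 1 SE) and the same without *Raf926* replicate 2 (diamonds). The 29 genes called lower are red, the 5 not called grey and *Zasp67* green. The diamonds lie far to the left for genes with a high replicate 2, to −12.05 for *Mf*, and for *TpnC25D* the diamond depends on the prior count because both remaining *Raf926* libraries had no read.

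*Raf926* replicate 2 exceeded 5 times the higher of replicates 1 and 3 in 18 of the 35 genes. Over all genes tested this held for 1.55%, and the same measure for replicates 1 and 3 gave 0.121% and 0.0173% of all genes and none of the 35. With levels under 3 counts set at 3 counts, as for *Mf*, the largest ratios were 263 for *Mf*, 102 for *Mp20*, 54.6 for *Act87E*, 42.1 for *Zasp66*, 40.0 for *TpnC47D* and 34.5 for *up*. A ratio over 2 was found in 21 genes, all of them called lower, and in 509 (4.40%) of all genes tested. In these 21, replicate 2 stood at 7.11% to 24.5% of the WT mean (median 11.5%), replicate 1 at 0% to 5.27% (median 0.581%) and replicate 3 at 0% to 3.90% (median 0.230%). The 21 were picked by this ratio, so a replicate 2 above the others follows from the choice. They included all 5 thick filament genes, 10 of the thin filament genes, *bt* and *Unc-89*, and *Zasp66*, *Mlp60A*, *Mlp84B* and *tn*.

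The 8 other genes called lower were *TpnC41C*, *sls*, *Strn-Mlck*, *Actn*, *l(2)efl*, *SERCA*, *RyR* and *Argk1*. Their medians over genes were 19.6%, 23.9% and 21.3% of WT in *Raf926* replicates 1, 2 and 3. *RyR* stood at 4.29%, 4.30% and 2.53% of its WT mean, so a low level in *Raf926* did not always come with a high replicate 2. Without replicate 2, the same 29 genes were called lower and the median log2 fold change of the 35 was −5.40, and it was also −5.40 with *TpnC25D* set at its bound of −5.71. In the 21 genes the log2 fold change then lay between −12.05 and −4.52, against −5.28 to −3.43 with all samples. The 21 were chosen for a high replicate 2, so a larger fall without it was fixed in advance.

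**Figure D4:**
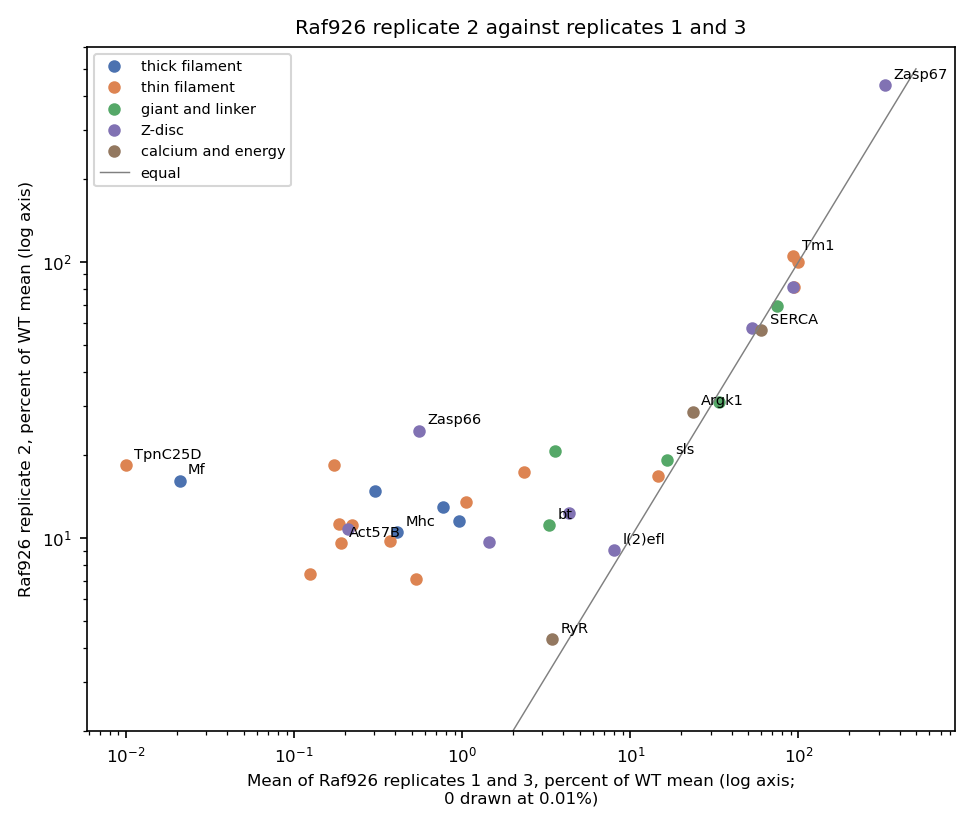
Level in *Raf926* replicate 2 against the mean of replicates 1 and 3, both as a percent of the WT mean on log axes, with 1 point per gene coloured by role and a line of equality. The 21 genes with a ratio over 2 lie in a band from 7.11% to 24.5% on the vertical axis, whatever their level in the other replicates, while *RyR*, *l(2)efl*, *sls*, *Argk1* and *SERCA* lie near the line. *TpnC41C*, *sls* and *l(2)efl*, outside the 21, also lie in that band, at 16.8%, 19.1% and 9.05%.

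Upstream regulators and markers of other cells were compared with this spread. *Mef2*, the transcription factor that activates many muscle genes, had 5936, 6977 and 6598 normalized counts in WT and 1610, 1803 and 1804 in *Raf926* (log2 fold change −1.90, SE 0.10, adjusted p = 2.2e-05). *twi*, which specifies mesoderm, had 1663, 2589 and 1453 in WT and 1.16, 3.15 and 6.31 in *Raf926* (−8.99, SE 0.44). Neither had its highest *Raf926* value in replicate 2. Other listed regulators of muscle, visceral muscle and heart did, at low counts, namely *nau*, *bap*, *bin*, *tin* and *Hand*. *nau* had 3.49, 14.7 and 7.36 normalized counts in *Raf926* and *tin* had 19.8, 48.2 and 7.36. *lmd*, *Cf2*, *how* and *org-1* were not highest in replicate 2. Of 6 muscle regulators listed, 5 were called lower, against 26.9% of all genes tested, and *Cf2* was not. *how*, at a log2 fold change of −0.592, was only just past the fold threshold.

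Receptors at the muscle side of the nerve contact had their highest *Raf926* value in replicate 2, except *GluRIID*. All 5 genes of the muscle glutamate receptor were called lower, against 26.9% of all genes tested. *GluRIIA* had 244, 233 and 347 normalized counts in WT and 10.5, 151 and 17.9 in *Raf926* (log2 fold change −2.19, SE 0.86, adjusted p = 0.058), with replicate 2 apart. *GluRIIC* had 253, 163 and 376 in WT and 4.65, 12.6 and 0 in *Raf926* (−5.49, SE 0.80). *GluRIID* had 270, 181 and 330 normalized counts in WT and 23.3, 8.39 and 13.7 in *Raf926*, with replicate 2 the lowest. Counts in *Raf926* were low in *GluRIIB*, *GluRIIC* and *GluRIID*. Summed over the 5 receptor genes, the level was 26.1 to 49.2 CPM in WT and 2.55 to 7.40 CPM in *Raf926*.

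Other cell types also differed between the groups. All 5 listed regulators of visceral and heart muscle were lower (55.2 to 64.5 summed CPM in WT, 1.29 to 2.46 in *Raf926*), as were 5 of 6 neuron markers (513 to 726 and 112 to 127), while 4 of 5 epidermis and trachea markers were higher (524 to 823 and 2295 to 3134) and 5 of 6 maternal transcripts were higher (2257 to 2761 and 3762 to 4576). Hemocyte markers divided into 3 lower and 2 higher, and of 4 glia markers 2 were lower and 2 not called. Among all genes tested, the shares were 26.9% lower and 22.7% higher. The part of the cell composition in the falls of the contractile genes was not tested. Genes of adult eye and female tissue summed to 1.17 to 2.86 CPM in every sample, near 0 in both groups.

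Listed genes used mainly in the muscles of the adult were at low counts in every sample. *Act88F* had at most 8 expected counts and *fln* at most 7 in any sample, both under the filter. *Act79B*, another actin of adult muscle, had 13.5, 6.82 and 14.2 normalized counts in WT and 91.9, 55.6 and 50.5 in *Raf926* (log2 fold change 2.50, SE 0.43, adjusted p = 0.002). *TpnC4* had 19.3, 32.1 and 11.7 in WT and 44.2, 43.0 and 32.6 in *Raf926* (0.93, SE 0.43, adjusted p = 0.098). These were the only actin and troponin C genes looked at that were called higher in *Raf926*, and both stayed under 100 normalized counts.

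A further list held 13 genes with roles in contraction, of which 11 were matched, with 5 called lower, 2 higher and 4 not called. The shares over all genes tested were 26.9% lower and 22.7% higher. *jp*, junctophilin, which ties the reticulum to the cell membrane, had 1412, 924 and 1995 normalized counts in WT and 178, 193 and 150.3 in *Raf926* (log2 fold change −3.05, SE 0.29, adjusted p = 0.00015). *Ca-alpha1D*, an L-type calcium channel, had 999, 897 and 1462 in WT and 439.8, 517 and 433 in *Raf926* (−1.27, SE 0.21). Both had *Raf926* replicates close together, as *RyR* did.

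*SclA* and *SclB*, sarcolamban genes whose small peptides bind the calcium pump, behaved otherwise. *SclB* had 1074, 774 and 1337 normalized counts in WT and 0, 75.5 and 0 in *Raf926* (log2 fold change −5.37, SE 1.21), and *SclA* had 142, 125 and 192 in WT and 1.16, 46.1 and 0 in *Raf926* (−3.25, SE 1.14). Replicate 2 stood apart in both, and reads of such small neighbouring genes may have been divided between them. *Lmpt* (log2 fold change 1.14, SE 0.22) and *Lasp* (0.71, SE 0.13), both LIM-domain genes, were called higher, but only 1 of these stayed called higher with scaling by library size alone.

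Of 5 listed non-muscle myosin and actin genes, 4 were matched, and none of the 4 was called in either direction. Among all genes tested, 49.7% were called either way. *sqh*, the non-muscle regulatory light chain, had 5503, 6290 and 5833 normalized counts in WT and 8689, 8222 and 8405 in *Raf926* (log2 fold change 0.52, SE 0.09). *Mlc-c*, the non-muscle essential light chain, had a log2 fold change of 0.54 (SE 0.08). Their adjusted p were 0.0018 and 0.0013 by edgeR's quasi-likelihood test, and the fold changes were under 1.5.

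Which isoforms a gene made was read from the transcript length that RSEM gives per sample, an average over the isoforms weighted by their abundance. Of the 35 genes, 12 had at least 100 counts in every sample and a length that varied, 22 were under that minimum and 1 had a constant length. In 9 of the 12 the lengths did not overlap between groups, 6 being longer and 3 shorter in *Raf926*, and in 6 the mean also moved by more than 10%. Over the 4562 genes measured in the same way, 45.2% did not overlap and 3.59% did so with a move of more than 10%. The median absolute change was 7.32% in the 12 genes and 0.635% in all. The minimum left out many genes with large falls, among them *Mhc*, *Act57B*, *up* and *Mf*. It kept all 5 genes not called by counts, so the 12 do not stand for the 35. With 3 samples against 3, the exact two-sided permutation test reached its smallest p of 0.1 in each of the 9 genes, 0.133 after Benjamini-Hochberg adjustment over the 12, so no single length passed a threshold of 0.05.

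*Tm1* transcripts averaged 1694, 1777 and 1615 bases in WT and 2092, 2062 and 2103 bases in *Raf926*, a change of 23.0%. The total count of *Tm1* did not differ while its lengths did not overlap. The deposited values name 17 *Tm1* transcripts, from 752 to 3054 bases in BDGP6.54, and do not give the abundance of each. TPM divides by length and carries no TMM scaling. On that scale *Tm1* was at 574, 485 and 701 TPM in WT and 345, 409 and 350 TPM in *Raf926*. The normalized counts did not show this separation. With scaling of the counts by library size alone, the log2 fold change of *Tm1* was −0.24.

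*Zasp52* and *Msp300*, also not called by counts, had longer transcripts too. *Zasp52* averaged 3191, 3398 and 3212 bases in WT and 4009, 3944 and 3909 in *Raf926* (21.0% longer), and *Msp300* averaged 22632, 23430 and 23391 bases in WT and 31714, 30106 and 32121 in *Raf926* (35.3% longer). *Argk1*, which was lower by counts, averaged 1653, 1646 and 1635 bases in WT and 2117, 2022 and 2154 in *Raf926* (27.6% longer). In these genes the *Raf926* samples were closer to each other than to any WT sample.

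*sls* and *Strn-Mlck*, both giant genes, had shorter transcripts in *Raf926*. *sls* averaged 28195, 26373 and 29134 bases in WT and 18733, 20240 and 18833 in *Raf926*, a change of −30.9%. *Strn-Mlck* averaged 5620, 5168 and 4986 bases in WT and 4690, 4651 and 4844 in *Raf926*, a change of −10.1% with nearest samples close together. *sls* isoforms in BDGP6.54 run from 15263 to 56489 bases, and *Msp300* isoforms from 2610 to 43121 bases. *SERCA* (4.34%), *Actn* (3.59%) and *tmod* (−4.57%) moved without overlap by less than 10%, and *bt*, *RyR* and *Chd64* overlapped.

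**Figure D5:**
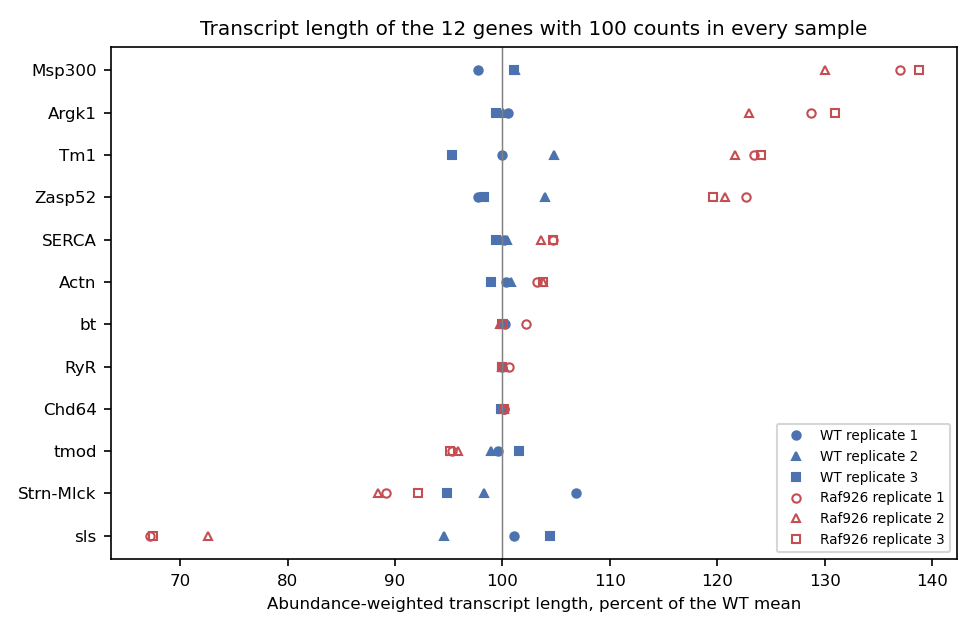
Abundance-weighted transcript length of the 12 genes with at least 100 counts in every sample, as a percent of the WT mean, for the 3 WT samples (filled) and the 3 *Raf926* samples (open). *Msp300*, *Argk1*, *Tm1* and *Zasp52* are longer in every *Raf926* sample by more than 20% on average, and *sls* changes by −30.9%.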

How the data were processed

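RNA of 3 WT and 3 *Raf926* samples was sequenced by the authors, who aligned the reads with STAR 2.7.1a to BDGP6.22 (Ensembl 97) and deposited, per gene and sample, the expected counts, TPM and length that RSEM 1.3.1 estimated. The expected counts deposited by the authors were rounded to whole numbers for testing. TPM values deposited by the authors were used to compare levels between genes, and the deposited lengths, in bases, to compare isoform use. FPKM values were not used. Whether the counting used strand is not given in the sources used here.

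Names and coordinates came from BDGP6.54 (Ensembl 115), a later annotation that matched 17587 of 17714 identifiers. As in the study's methods, 390 rRNA, snoRNA and snRNA genes and genes with a mean under 10 counts were removed, which left 11568. The groups were compared with edgeR 4.0.16 (TMM, quasi-likelihood test, R 4.3.3). The SE is the absolute log2 fold change over the square root of F. DESeq2 1.42.0 was an alternative, as were other scalings, filters, a replicate block and each sample left out. The test was checked on simulated counts. Lengths were compared by an exact two-sided permutation test. Reads carried no molecular identifiers, so the floor of 3 counts, 0.0787 to 0.0902 CPM, covers counting error only. Replicates are called biological in the study's methods.

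The 35 genes, the context lists and the tests were chosen with earlier results of these data known. All 35 genes are named, together with genes of the context lists and the 5 other genes with the largest ratio of *Raf926* replicate 2 to replicates 1 and 3 and at least 100 normalized counts on average. Of 75 listed context genes, 72 were matched. Figures were drawn with matplotlib 3.10.9.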

Additional observations from a re-analysis of the deposited data

How the results depend on the processing

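Of the 35 genes, 28 to 30 were called lower in every setting tried, and 1 was called higher in each. The median log2 fold change lay between −3.50 and −5.40, the last without *Raf926* replicate 2. All genes shifted to a median of −0.24 with library size alone and −0.20 with upper-quartile scaling, against −0.04. Calls that changed were *Msp300* (gained with library size alone, upper-quartile scaling and without WT replicate 2), *TpnC25D* (lost with the DESeq2 Wald test) and *Mf* (lost without WT replicate 1). Of the further contraction genes, 1 and not 2 was called higher with library size alone and upper-quartile scaling.

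The sign turned only in genes that were not called. The log2 fold change of *Tm1* ranged from −0.149 to 0.0210 (without WT replicate 3) over samples left out, with 0.00569 without *Raf926* replicate 1, that of *Chd64* was 0.0253 with the replicate block, 0.22 without WT replicate 3 and 0.0145 without *Raf926* replicate 2, and that of *Zasp52* ranged from −0.342 to 0.0358, the last without WT replicate 3. The length change of *Zasp52* was 22.8% by medians. Same-numbered samples had correlations of −0.04, −0.20 and −0.18 in their deviations from the group means. These values gave no sign of pairing, but with so few replicates they cannot tell whether same-numbered samples were handled together. With the replicate block, 29 genes were lower, the same 29, with a median of −4.76. Leaving out a sample gave 9 to 10 genes with lengths that did not overlap, an alternative chosen after seeing the data. A search of promoters for motifs was not run. Isoform identity, strand and reads shared between near-identical genes limit these values, and fewer than 10 reads in at least 1 library limit 10 of the genes (*Mlc1*, *Mf*, *Act87E*, the 4 troponin C genes, *Mp20*, *Zasp67* and *Mlp60A*), their ratios and their fold changes without *Raf926* replicate 2 included.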

Other observations

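The high *Raf926* replicate 2 was not confined to the contractile genes. With levels under 3 counts set at 3 counts, among the other genes averaging 100 or more normalized counts, the 5 with the largest ratio of replicate 2 to the higher of replicates 1 and 3 were *CG14452* (296), *CG5023* (189), *fau* (117), *CG45076* (86.5) and *CG7017* (83.3). *CG14452* had 7606, 4605 and 10397 normalized counts in WT and 1.16, 967 and 3.15 in *Raf926* (log2 fold change −4.53, SE 1.53). *CG5023* had 1792, 1132 and 2081 in WT and 0, 617 and 1.05 in *Raf926*, and was not called (−3.01, SE 1.5, edgeR adjusted p = 0.12). *fau* had 1337, 945 and 1357 in WT and 1.16, 383 and 3.15 in *Raf926* (−3.22, SE 1.37). In all 5 genes the WT samples were above every *Raf926* sample, and replicate 2 stood at 12.8% to 37.0% of the WT mean.

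Over all genes tested, 179 had *Raf926* replicate 2 over 5 times the higher of the others, 18 of them among the 35 contractile genes, and which tissues the rest belong to was not tested. Listed markers of other tissues gave the following values. *elav*, a marker of neurons, was at 2314, 1698 and 1621 normalized counts in the *Raf926* samples, in replicate order. Of the other listed neuron markers, *nSyb*, *Syt1*, *brp* and *Rdl* were highest in replicate 2, by less than 2 times over the next sample. *nSyb* was at 441, 545 and 417 and *Syt1* at 403, 487 and 460.4. *brp* was at 893, 1018 and 836 and *Rdl* at 243, 365 and 301. *para* was highest in replicate 3, at 635, 665 and 750. *Hand*, a regulator of heart and visceral muscle, had 1.16, 4.2 and 1.05, and *verm*, which modifies chitin in trachea and epidermis, had 69663, 58615 and 51392. *Fbp1*, a fat body receptor, had 2437, 2379 and 1796, against 6.77 to 14.6 in WT. *Lsp2*, a fat body storage protein gene under the filter, had 0, 17.4 and 0 expected counts.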
